A study of Homo sapiens with 6 samples.

Results

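The G1 cyclins, their kinases and the RB proteins are the machinery that decides whether a cell leaves the first gap phase and starts to copy its DNA. The group was taken as 10 listed genes: the cyclins CCND1, CCND3, CCNE1 and CCNE2, the kinases CDK2, CDK4 and CDK6, and the pocket proteins RB1, RBL1 and RBL2. All 10 had a row of their own among the 22411 named genes tested, and each had only 1 such row. The cells were U87, a human glioblastoma line that has long been kept in culture, and their RNA was measured on 6 Affymetrix whole-transcript arrays. The treated group (3 arrays) was RNA of cells incubated for 48 h with a 1 mM amino acid that carries a carborane, a cage of boron, carbon and hydrogen, and the control group (3 arrays) was RNA of untreated cells. Before that, all cells had been cultured for 48 h in a medium (EMEM) to which 10% serum and 1 mM pyruvate were added. The labels name no vehicle for the controls, give the compound no other name, and do not say whether each replicate was its own culture. The p-values therefore reflect only how much these arrays vary, and that variation may be technical. Values are log2 signals normalized by the authors, and a gene was called when its Benjamini-Hochberg adjusted p over all 22411 genes was under 0.05 (limma).

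Across all genes, arrays of the same group correlated at 0.998 (Pearson, across genes, which are not independent replicates), against 0.959 to 0.963 between groups. Of the markers of glial and glioblastoma cells, 4 of 7 were above the median of the genes' mean signals (6.12) on some or all arrays (VIM, NES, CD44 and SOX9), and GFAP, S100B and SOX2 were below it on every array. Of 10 markers of other cell types, 8 were below that median on every array, among them PTPRC, EPCAM and PECAM1; the exceptions were CD68, a lysosomal protein gene with signals of 16.08 to 16.15, and the collagen gene COL1A1, which fell by 1.75 on the log2 scale. NES, SOX9 and VIM fell, with log2 changes of -1.89, -1.86 and -0.70, and CD44 rose by 0.44. The summed log2 signal of the 7 glial and glioblastoma markers was 64.3 to 64.8 in control and 60.1 to 60.4 in treated arrays, and that of the 10 others was 63.8 to 64.0 and 61.4 to 62.1. The part of either in the results was not tested.

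D-type cyclins bind CDK4 and CDK6 when growth factors are present, and E-type cyclins bind CDK2 later in G1. Together these kinases phosphorylate RB1 and its relatives, which otherwise hold E2F transcription factors in check, so that genes for DNA synthesis are switched on. In glioblastoma this pathway is commonly altered by loss of the CDK inhibitor gene CDKN2A, gain of CDK4 or loss of RB1. These proteins are also controlled by phosphorylation and by timed destruction, which arrays do not measure.

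After 48 h with the compound, RBL1, CDK2 and CCNE2 fell strongly, CCND1, CCND3, RB1 and CDK4 fell modestly, RBL2 and CDK6 rose, and CCNE1 was not called. In total 7 members were lower, 2 were higher and 1 was not called, where 45.6% of all genes tested were called, 21.6% lower and 24.0% higher. The median log2 change of the 10 genes was -0.65, against 0.01 for all genes tested. Treated and control values did not overlap for 9 of the 10 genes, and 53.5% of all genes tested had no overlap, 27.7% with treated values higher and 25.8% with treated values lower. In RNA of whole cultures, a lower share of cells in a given cycle phase and less RNA per cell cannot be told apart. The 95% intervals of the fit and the place of each gene among all genes are shown in the plot of member changes and the histogram of all changes.

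**Figure D1:**
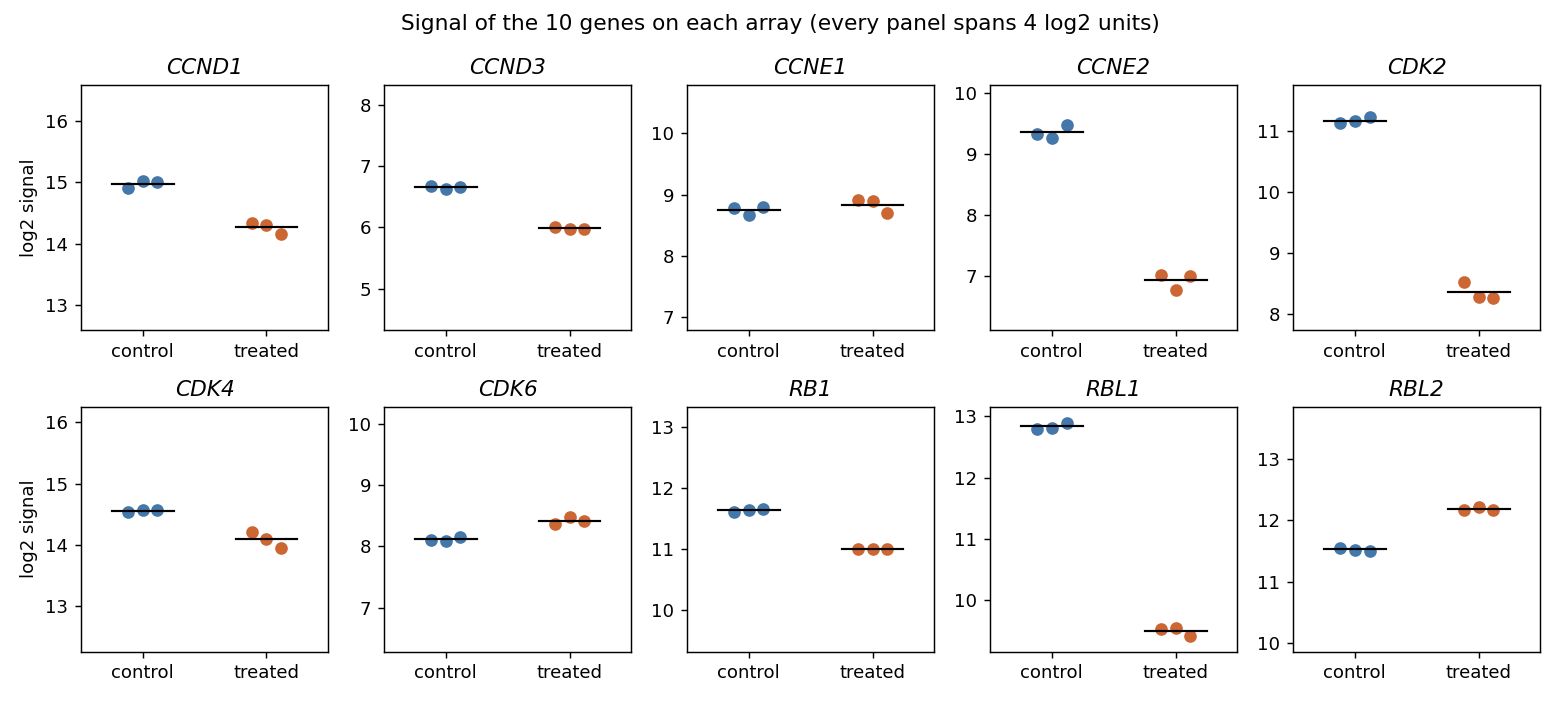
Log2 signal of each of the 10 genes on every array (y axis, 4 log2 units in each panel) for control (blue) and treated (orange) cells; points are the 3 arrays of a group and the black line is their mean. CCNE2, CDK2 and RBL1 show gaps of 2.24, 2.60 and 3.25 between the groups, RBL2 and CDK6 lie higher in treated cells, and only CCNE1 overlaps.

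**Figure D2:**
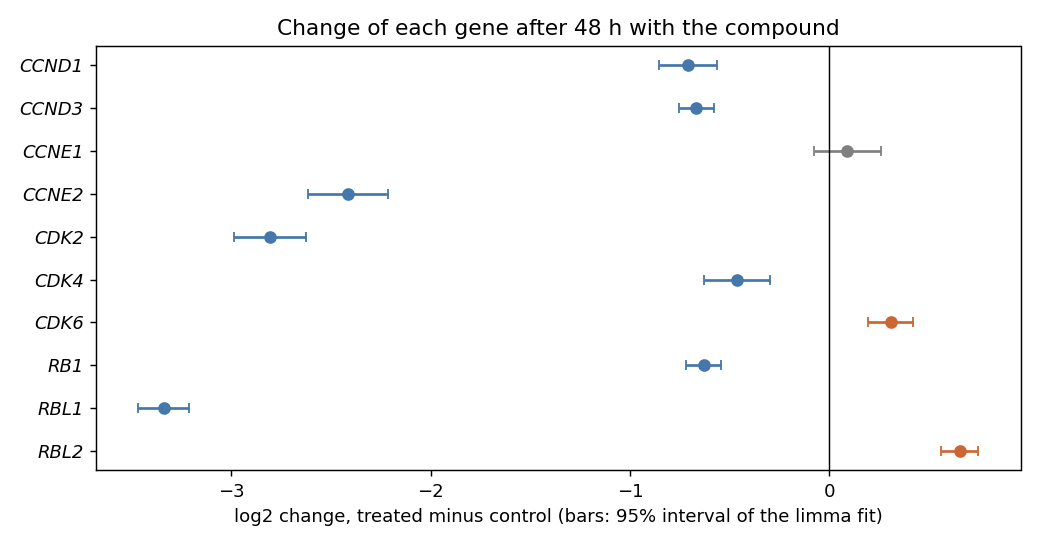
Log2 change of each gene, treated minus control (x axis), with the 95% interval of the limma fit as bars; blue genes were called lower, orange genes higher and the grey gene was not called. The changes run from -3.34 for RBL1 to 0.65 for RBL2, and the interval of CCNE1 includes 0.

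**Figure D3:**
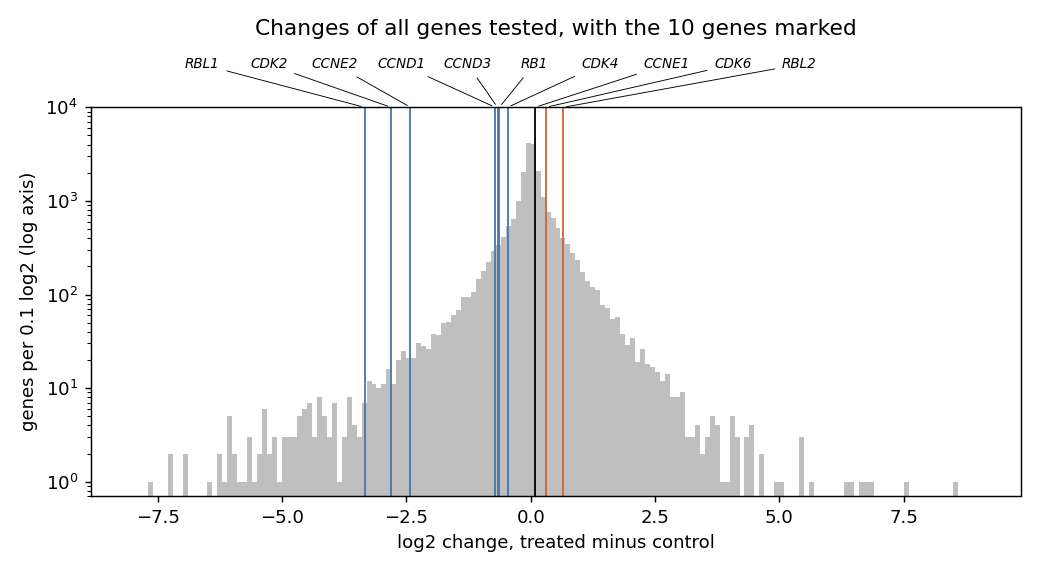
Number of genes (y axis, log scale) by log2 change, treated minus control (x axis, steps of 0.1) for the 22411 genes tested, with a vertical line for each of the 10 genes (blue, called lower; orange, called higher; black, not called). RBL1, CDK2 and CCNE2 lie in the thin lower tail, with 109, 174 and 247 genes having a larger fall, and the other 7 lie between -0.71 and 0.65.

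Both D-type cyclins of the group fell. CCND1, which encodes cyclin D1, the growth-factor-responsive partner of CDK4 and CDK6, had log2 signals of 14.91, 15.02 and 15.00 in controls 1 to 3 and of 14.33, 14.31 and 14.16 in the treated arrays. Every treated array was below every control, by at least 0.58. The log2 change was -0.71 (SE 0.06, 95% interval -0.85 to -0.57, adjusted p = 5.80e-05), which is 1.64-fold lower on the deposited scale. CCND3, the gene of cyclin D3, had control signals of 6.67, 6.63 and 6.66 and treated signals of 6.00, 5.98 and 5.98. Its log2 change was -0.67 (SE 0.04, adjusted p = 6.95e-06). The treated values of CCND3 were lower than the median of tested genes on every array (6.06 to 6.10). No background level was estimated, and signals in this range were taken as close to it, so the size of the CCND3 change is uncertain.

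The kinases of the D-type cyclins moved in opposite directions. CDK4 had log2 signals of 14.53, 14.56 and 14.56 in control and 14.21, 14.10 and 13.95 in treated cells. The treated arrays were all lower and spread over a wider range than the controls (SD 0.13 against 0.02, n = 3 each). The log2 change of CDK4 was -0.46 (SE 0.07, adjusted p = 0.00110). CDK6, which can take the place of CDK4 in many cells, had control signals of 8.10, 8.08 and 8.16 and treated signals of 8.37, 8.48 and 8.41. All treated values were above all control values, with a log2 change of 0.31 (SE 0.05, adjusted p = 0.00138). Both changes were small: 12.1% of all genes fell by more than CDK4, and 19.0% rose by more than CDK6. Neither was called when a log2 change of more than 0.5 was required (adjusted p = 1.00 for each), a setting that called 7 members and 16.7% of all genes.

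The E-type cyclins differed. CCNE2, the gene of cyclin E2, had log2 signals of 9.32, 9.26 and 9.47 in control and 7.02, 6.78 and 7.0 in treated cells, so that the groups were far apart. Its log2 change was -2.42 (SE 0.08, 95% interval -2.62 to -2.22, adjusted p = 7.57e-07), or 5.34-fold lower. CCNE1, the gene of cyclin E1, the other activator of CDK2 at the G1/S boundary, had control signals of 8.78, 8.67 and 8.79 and treated signals of 8.91, 8.90 and 8.70. Treated replicates 1 and 2 were above all controls, and treated replicate 3 lay among them. The log2 change of CCNE1 was 0.09 with a 95% interval of -0.08 to 0.26 (adjusted p = 0.358). Without treated replicate 3 it was 0.16 (adjusted p = 0.0674). The interval leaves room for a small rise and contains no fall of the size seen for CCNE2.

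CDK2, the kinase that E-type and later A-type cyclins activate, was among the strongest fallers of the 10 genes. Its log2 signals were 11.12, 11.15 and 11.22 in control and 8.52, 8.28 and 8.27 in treated cells. The lowest control lay 2.60 above the highest treated array. The log2 change was -2.81 (SE 0.08, 95% interval -2.99 to -2.63, adjusted p = 2.46e-07), or 7.0-fold lower, and 0.776% of all genes fell by more.

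The pocket proteins, which bind E2F factors and repress their targets, changed unequally, with RBL1 and RB1 lower and RBL2 higher. RBL1 encodes p107, a pocket protein that is itself made mainly in cycling cells. It had log2 signals of 12.79, 12.82 and 12.90 in control and 9.53, 9.54 and 9.42 in treated cells, the largest change of the 10 genes. The log2 change of RBL1 was -3.34 (SE 0.05, 95% interval -3.47 to -3.21, adjusted p = 3.34e-08), or 10.1-fold lower, and 0.486% of all genes fell by more. RB1, the retinoblastoma tumour suppressor gene, had control signals of 11.61, 11.63 and 11.65 and treated signals of 11.00 on each of the 3 arrays, to the 2 decimals deposited. Its log2 change was -0.63 (SE 0.04, adjusted p = 8.62e-06). RBL2 encodes p130, the pocket protein that is most abundant in resting cells and forms the DREAM repressor complex there. Its control signals were 11.55, 11.52 and 11.50, its treated signals were 12.16, 12.21 and 12.16, and its log2 change was 0.65 (SE 0.04, 95% interval 0.56 to 0.75, adjusted p = 1.01e-05). The groups did not overlap for any of the 3 genes.

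The promoter windows of RBL1 and RBL2 are shown because these relatives moved furthest apart of the pairs compared. Each runs from 250 bases before to 50 after the annotated start, in RefSeq's GRCh38.p14, and reads 5′ to 3′ on the gene's strand. RBL1 is at chr20:37095948-37096247 on the minus strand, and the first of the windows listed for RBL2 is at chr16:53434221-53434520 on the plus strand. The windows were searched on both strands for 4 forms of the E2F motif (TTTCCCGC, TTTCGCGC, TTTGCCGC and TTTGGCGC) and for the CHR element, which the DREAM complex binds (TTTGAA and TTCGAA). No form is contained in another, and capitals mark the matches.
RBL1: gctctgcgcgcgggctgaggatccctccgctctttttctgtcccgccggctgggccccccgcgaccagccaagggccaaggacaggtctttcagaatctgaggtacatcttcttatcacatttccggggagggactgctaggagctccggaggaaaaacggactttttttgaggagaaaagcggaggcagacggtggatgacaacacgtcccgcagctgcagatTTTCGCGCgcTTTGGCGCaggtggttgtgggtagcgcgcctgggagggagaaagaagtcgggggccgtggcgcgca
RBL2: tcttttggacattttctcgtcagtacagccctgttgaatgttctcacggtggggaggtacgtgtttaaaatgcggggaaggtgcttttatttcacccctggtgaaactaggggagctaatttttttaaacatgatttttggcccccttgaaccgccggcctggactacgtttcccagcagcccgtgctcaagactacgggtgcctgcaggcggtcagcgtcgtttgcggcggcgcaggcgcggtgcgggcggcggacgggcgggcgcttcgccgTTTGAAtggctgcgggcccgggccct
The RBL1 window held 2 E2F matches, TTTCGCGC and TTTGGCGC, which begin 26 and 16 bases before the annotated start, and no CHR match. The RBL2 window held no E2F match and 1 CHR match, TTTGAA, beginning 24 bases after the start. Of 35116 windows of the same length, 3.31% held an E2F match and 16.4% a CHR match. Windows were listed for 7 of the 10 genes (CCND3, CCNE1, CDK4, CDK6, RB1, RBL1 and RBL2), and those of CCND3, CCNE1, CDK4, CDK6 and RB1, and the second window of RBL2, held neither. Only the listed windows were searched, and other start sites of these genes were not. RB1 had 1 window, at chr13:48476200-48476499 with 38.3% GC, so its result covers that start alone. CCND1, CCNE2 and CDK2 had no entry. A match of letters is not evidence of binding, and these arrays did not measure binding.

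Relatives were then compared within each array, as the log2 signal of one gene minus that of the other, set to 0 at the control mean, so that only the movement between groups counts. RBL1 minus RBL2 moved by -3.99 log2 units. Its values were -0.07, -0.01 and 0.09 in controls and -3.94, -3.98 and -4.05 in treated arrays. RB1 minus RBL1 moved up by 2.71 and RB1 minus RBL2 moved by -1.28. CCNE1 minus CCNE2 moved up by 2.51, with treated arrays at 2.49, 2.72 and 2.30. CDK2 minus CDK4 moved by -2.34 and CDK4 minus CDK6 by -0.77, and in each of these 6 pairs the groups did not overlap. The share of other gene pairs without overlap was not computed, and 53.5% of all single genes tested had none. With 3 arrays against 3, the two-sided exact permutation test cannot go below p = 0.1, which all 6 pairs reached (adjusted p = 0.117 over 7 pairs), so none passed 0.05. CCND1 minus CCND3 moved by -0.04, with treated arrays at 0.01, 0.01 and -0.14 among controls at -0.08, 0.07 and 0.02 (exact permutation p = 0.5), and without treated replicate 3 it moved by 0.01, in the other direction.

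**Figure D4:**
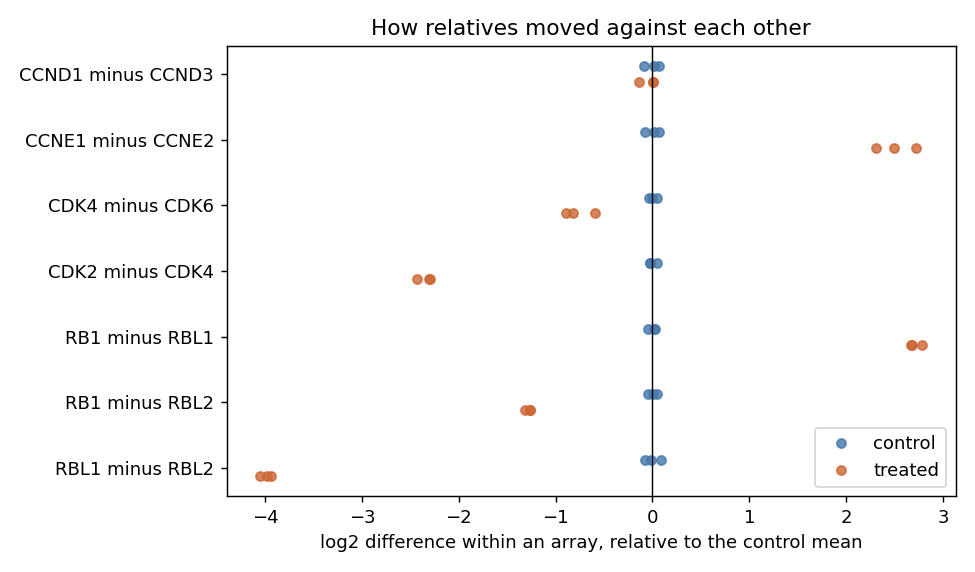
Log2 difference between relatives within each array, relative to the control mean (x axis), for 7 pairs of genes (y axis); blue points are the 3 control arrays and orange points the 3 treated arrays. RBL1 against RBL2 moved furthest (-3.99), and only CCND1 against CCND3 overlaps between the groups.

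Genes known to act with the members were read from 8 lists, of which 78 of 83 genes had a row of their own and 65 were called, against the 45.6% of all genes given above. The G1/S targets of E2F, the genes this pathway switches on, were the most uniform in the direction of change. All 22 measured targets fell, with a median log2 change of -3.00 and a range of -6.99 to -0.32. CCNA2, the gene of cyclin A2, which succeeds cyclin E as the partner of CDK2, ranked first by adjusted p, with a change of -6.99 (SE 0.06). The replicative helicase genes MCM3 and MCM5 followed at -4.19 and -4.38, with an adjusted p of 1.09e-08 that MCM4 and MCM6 share. The log2 changes of RBL1 (-3.34), CDK2 (-2.81) and CCNE2 (-2.42) lay within the wide range of this list, as did those of the other members called lower. Whether they share a cause with the list was not tested.

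The E2F and DP factors moved both ways, with 5 of 10 called lower and 4 higher, at a median of -0.37. With 1 array left out 3 to 4 were called higher. Without dim genes 4 were called lower, because 1 of the 5 lay under the signal cut and was not tested. E2F8, an atypical repressor of the family, fell by 4.88 (SE 0.09) on the log2 scale. E2F1, the activator that RB1 binds, fell by 2.51 (SE 0.05), and TFDP1, a dimerization partner of E2F1, by 1.41. TFDP2, a second partner, rose by 0.76, E2F5, a repressor, by 0.79, and E2F6, a repressor that needs no pocket protein, by 0.67. E2F4, also called lower, went from 11.90 to 11.18 on average, a log2 change of -0.72 (SE 0.05). E2F8 lay below the array medians in treated cells, so its size is uncertain. The MuvB core and the DREAM kinase, which assemble with p130, had 2 of 6 higher, 1 lower and 3 not called (median -0.09). LIN37, a subunit required for DREAM repression, rose by 1.27 (SE 0.05), DYRK1A, the kinase that starts DREAM assembly, rose by 0.62, and LIN9 fell by 1.58. The number called lower went from 1 to 3 without dim genes, with quantile normalization repeated or with trend and robust estimation. Of 7 measured chromatin partners of RB, 6 fell and 1 rose, with a median of -0.44. The histone methyltransferase gene SUV39H1 fell by 1.84, the deacetylase gene HDAC1 by 1.39 and the remodeller gene SMARCA4 by 0.73, and the demethylase gene KDM5A rose by 0.29. SUV39H1 was below the array medians in treated cells.

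Of 6 CDK inhibitors measured, 2 were called higher and 1 lower, and the median was -0.03. The 3 that were not called, CDKN2A among them, were below the array medians in both groups. Their signals were taken as close to background, so a change in them could be missed and the list median says little. CDKN1A, which encodes p21, rose by 1.02 (SE 0.10, adjusted p = 1.02e-04). CDKN1B, which encodes p27, an inhibitor of cyclin E and CDK2, had a log2 change of 0.19 (adjusted p = 0.0206), and its call was lost without control replicate 1 (adjusted p = 0.0673) or control replicate 3 (adjusted p = 0.0561). CDKN2D had a log2 change of -0.19 (adjusted p = 0.0386), and its call was lost without control replicate 1, 2 or 3 (adjusted p = 0.0543, 0.0861 and 0.120) and without treated replicate 2 or 3 (adjusted p = 0.0729 and 0.0912). It was also lost with arrays centred on their medians (adjusted p = 0.0731) or quantile normalization repeated (adjusted p = 0.101). CDKN2A, which encodes the CDK4 and CDK6 inhibitor p16 and is deleted in U87 cells, had signals of 5.08 to 5.19 in control and 5.09 to 5.16 in treated cells, below the array medians.

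Of the genes for turnover of G1 cyclins and p27, 4 of 10 rose, 3 fell and 3 were not called (median -0.02). SKP2 and CKS1B, which together direct p27 to destruction, fell by 2.39 (SE 0.05) and 1.54 (SE 0.08). FBXW7, the receptor that marks phosphorylated cyclin E for destruction, rose by 0.68 (SE 0.04). AMBRA1 and FBXO31, which do so for D-type cyclins, rose by 0.37 and 0.52. FBXO4 had a log2 change of -0.22 (adjusted p = 0.0281), lost without control replicate 1 or 2 (adjusted p = 0.0773 and 0.0659) or treated replicate 1 or 3 (adjusted p = 0.0831 and 0.0512).

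Of 5 measured genes in the list of cyclin D2 and the CDK-activating kinase, 3 were higher, 1 was lower and 1 was not called (median 0.21). CDK7 and CCNH, the kinase and cyclin that activate CDK2 and CDK4 by phosphorylation, rose by 0.40 and 0.21, and their partner MNAT1 was not called (log2 change -0.06). CDC25A, the phosphatase that activates CDK2, fell by 1.66 (SE 0.09), from 7.71 to 6.05 on average, the latter near the array medians. CCND2, the gene of cyclin D2, was below the array medians in both groups, at 4.93 to 5.05 and 5.12 to 5.27 (adjusted p = 0.0217), and its call was lost without control replicate 1 or 3 (adjusted p = 0.0673 and 0.0743) or treated replicate 3 (adjusted p = 0.0597). Of 12 genes that carry growth signals to cyclin D1, 6 rose, 4 fell and 2 were not called (median 0.06). The number called higher was 4 to 5 with 1 array left out and 4 with quantile normalization repeated. The transcription factor genes ETS2 and ETS1 rose by 1.26 and 0.84 and the matricellular gene CCN1 by 1.12. The receptor gene PDGFRB fell by 0.66, the β-catenin gene CTNNB1 by 0.52 and the AP-1 gene FOSL1 by 0.52.

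**Figure D5:**
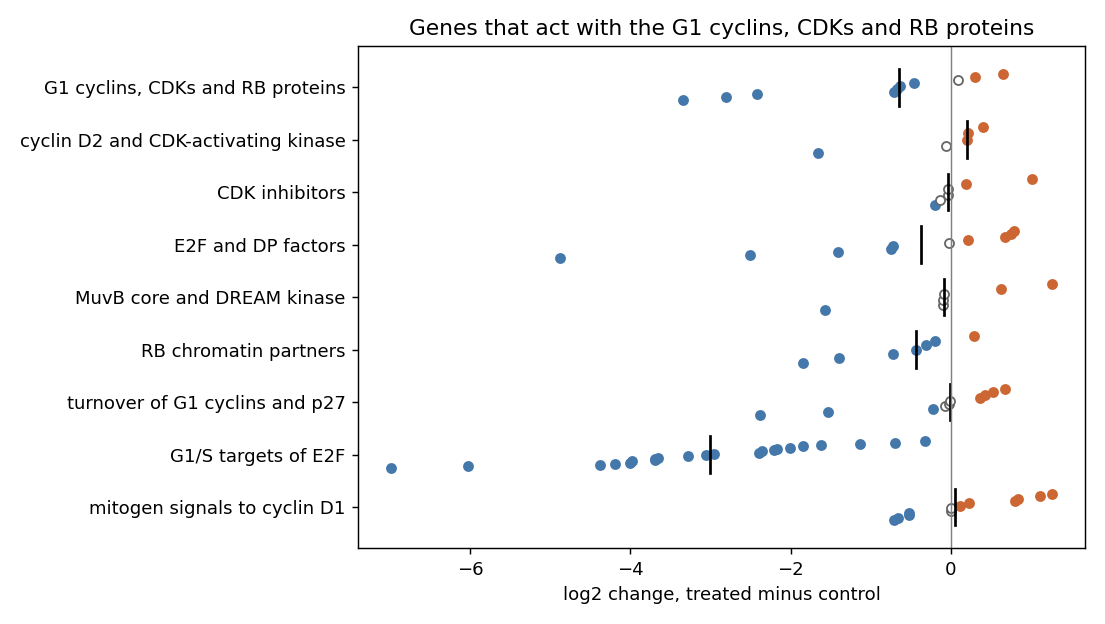
Log2 change, treated minus control (x axis), of every measured gene in the group itself and in 8 lists of genes that act with it (y axis); filled blue points were called lower, filled orange points higher and open points not called, and black bars are list medians. All 22 measured G1/S targets of E2F lie below 0, and most other lists hold points on both sides.

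For each called member, the protein-coding genes with the most similar values were found by the root mean square difference of the 6 array values, each gene first centred on its own mean. For RBL1 these were ZWILCH, SPDL1 and WLS (0.04 log2 units each). For CDK2 they were CDCA2, NUP107 and MYBL1 (0.05 to 0.07), and for CCNE2 they were FEN1, DBF4 and KPNA2 (0.06 to 0.07). RBL2 was closest to DNASE2, RAB31 and CSNK1A1, and RB1 to PTGES3, INF2 and CCT4 (each 0.02). CCND1 was closest to PEBP1, MR1 and CD9, CCND3 to RANBP1, TNFRSF1A and STAG1, CDK4 to RPS23, PDAP1 and CDS1, and CDK6 to PRKCI, INTS10 and GUCA1C. With 6 arrays in 2 groups this measure mostly reflects the size of the change.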

How the data were processed

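The table deposited by the authors holds 1 log2 signal for each transcript cluster and array. The submitters' processing notes name RMA and Transcriptome Analysis Console 4.0.1.36. RMA corrects background, forces 1 distribution on all arrays and summarises probes, so amounts of RNA per cell cannot be compared. The values ran from 2.44 to 19.46, and 181 to 196 per array exceeded 16, more than a 16-bit scanner gives, so the scale may be stretched. The step behind this and the genome build are not given in the sources used here. The number of arrays limits the precision.

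Of 67528 rows, 23781 had 1 symbol, updated to RefSeq's GRCh38.p14 names. The row with the highest mean was kept for each of 22411 genes. The contrast, treated minus control, was fitted in limma 3.58.1 (R 4.3.3) by lmFit and eBayes with trend off. The fit had 4 residual and 2.75 prior degrees of freedom, no gene was removed for low signal, and the fit was checked on simulated data. Pairs of members were tested with scipy 1.17.1, and figures drawn with matplotlib 3.10.9. Alternatives were a replicate block, each array left out, other filters, rows, scalings and variance models, array weights, a minimum log2 change of 0.5 and a compressed scale. The text names all members. In each list it names up to 3 called genes in either direction by smallest adjusted p. It also names CDKN2A, the 3 nearest patterns, and MNAT1 and E2F4, which were chosen after their values were seen. Members and lists were chosen with earlier results of these data known.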

Additional observations from a re-analysis of the deposited data

How the results depend on the processing

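Each of the 10 members kept its direction under all 17 alternatives, and no call was gained. The number of members called stayed at 9 with each array left out in turn, and the 22 E2F targets called lower stayed at 22 there too. Requiring a log2 change of more than 0.5 left 3742 genes called of 22411 (16.7%), 7 members, of which 1 was higher, and 43 of the pathway genes. The calls of CDK4 and CDK6 were lost there by the setting's construction, with changes of -0.46 and 0.31. E2F6 (0.67) and DYRK1A (0.62) were among the pathway genes that lost their call there (adjusted p = 0.0636 and 0.0982). The difference between CCND1 and CCND3 ran from -0.085 to 0.007 with 1 array left out, and reversed (0.007) without treated replicate 3; the cause was not tested. On the scale compressed to a highest value of 16, RBL1 was at -2.75 and CDK2 at -2.31, with no call changed. With the replicate number as a block, 9577 genes, 9 members and 59 of the pathway genes were called, against 65 pathway genes without it. Of the pathway genes named above as called, CDKN1B, CDKN2D, CCND2 and FBXO4 were not (adjusted p = 0.0524, 0.0956, 0.0652 and 0.074). Same-numbered arrays did not deviate together (correlations of -0.077, 0.04 and -0.047), so the numbers were not used as pairs. Testing all 67528 rows left 8611 of the 22411 genes, 9 members and 58 of the pathway genes called. CDKN1B, CDKN2D, CCND2 and FBXO4 were not called in that setting either (adjusted p = 0.0717, 0.103, 0.0697 and 0.0768). No member had a further row of its own to try, and averaging rows left the member values as they were. Signals below the array medians, or near them, were taken as close to background, though no background level was estimated. Signals close to background limit the size of any change that can be seen. Examples below the array medians are CCND2 and CDKN2A in both groups, and CCND3, E2F8 and SUV39H1 in treated cells. CDC25A was near them in treated cells. Other genes counted in the lists, G1/S targets of E2F among them, were also below the array medians in 1 or both groups.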
